A study of Rattus norvegicus with 14 samples.

Results

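The genes described here encode the proteins of the cytosolic ribosome. They were chosen by name: every gene whose only symbol in the array's annotation is Rpl or Rps followed by a number, with at most a short letter suffix, and the stalk and laminin-receptor genes Rplp0, Rplp1, Rplp2 and Rpsa where they have such a symbol. Kinases of ribosomal protein S6 and symbols of pseudogenes were left out. The rule found 56 genes, 38 of the large and 18 of the small subunit, among 18166 genes with a single symbol in the array's annotation. They are not all the proteins of the ribosome. Genes whose clusters carry several symbols, such as Rpl12, Rps10 and Rps18, are left out. The rule uses names only, but it was set with earlier results of these data known. A gene with several transcript clusters (sets of probes) is represented by the one with the highest mean signal in these data.

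Whole epididymides of Sprague-Dawley rats were pooled and measured on RatGene 2.0 ST arrays, 1 for each pool. The ages were 7 days (3 pools), 18 days (4 pools), 28 days (4 pools) and 60 days (3 pools). The labels record no treatment, genotype or number of animals per pool, so p-values measure the spread between pools. Animals of the first 2 ages were still with their mothers, and those of the later ages were fed freely. The signals are log2 values, on which a difference of 1 is a 2-fold difference, and they are relative to the other genes of the same array.

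The ribosome is built from a small subunit, which reads the mRNA, and a large subunit, which joins the amino acids. The mRNAs of its proteins are among the most abundant of a growing cell. Many of these mRNAs begin with a C followed by an unbroken run of pyrimidines, the 5' terminal oligopyrimidine or TOP tract, through which mTOR signalling controls how much of them is translated. The epididymis is the duct in which sperm mature. Its epithelium divides after birth, differentiates before puberty and secretes protein into the lumen in the adult.

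The tracts can be read for 46 of the 56 genes, which matched an entry among RefSeq's promoter sequences of build GRCr8. The sequence at the annotated start was a C with at least 4 further pyrimidines in 16 of the 46 (34.8%), against 2.63% of 27457 promoters of the same length. Such tracts were 5 to 12 bases long. The 8 windows that follow are examples with and without a tract from genes described further on, and Rpl23 among them had a small fall. Each holds 40 bases before the start and 20 from the start on, 5′ to 3′, and capitals mark the tract. The first 5 have a tract and the last 3 have none at the annotated start.
Rplp0, chr12:46718371-46718430, minus strand: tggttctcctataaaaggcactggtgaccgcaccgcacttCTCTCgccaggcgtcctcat
Rpl10, chrX:157205810-157205869, plus strand: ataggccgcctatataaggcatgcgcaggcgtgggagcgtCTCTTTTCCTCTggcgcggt
Rpl39, chrX:121195877-121195936, minus strand: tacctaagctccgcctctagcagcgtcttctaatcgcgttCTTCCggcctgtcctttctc
Rps15, chr7:10068096-10068155, minus strand: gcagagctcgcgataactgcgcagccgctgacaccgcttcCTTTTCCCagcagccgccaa
Rps27, chr2:177964587-177964646, minus strand: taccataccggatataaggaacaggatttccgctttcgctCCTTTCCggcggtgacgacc
Rps2, chr10:14251808-14251867, plus strand: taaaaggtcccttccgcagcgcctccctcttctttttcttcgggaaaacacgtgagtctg
Rps19, chr1:89608648-89608707, plus strand: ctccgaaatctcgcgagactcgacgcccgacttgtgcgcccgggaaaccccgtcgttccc
Rpl23, chr10:83272165-83272224, minus strand: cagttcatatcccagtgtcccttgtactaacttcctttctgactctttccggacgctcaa

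Rpl10 had the longest tract of the 46, at 12 bases. In Rps2 and Rpl23 a pyrimidine run ends at the annotated start, so that a start a few bases upstream would count as a tract. In Rpl29, also counted as without a tract, such a run crosses the annotated start. A gene without a tract here lacks one at the annotated start only. A pair of short motifs was searched on both strands of the full window of 300 bases. TTCCGG, the core of ETS-factor motifs, was in 23 of 46 windows (50%) and in 15.8% of all promoters. CTTTCC, which overlaps part of some tracts, was in 22 of 46 (47.8%) and in 26.4% of all. Letters in a window do not show that a factor binds there.

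The member signals averaged between 4.22 and 13.25, with a median of 10.66, and 36 of the 56 lay at or above the 97th percentile of all genes. Signals of different probes do not rank transcripts. A working background was taken from 1344 olfactory and vomeronasal receptor genes, whose median was 2.99 and 95th percentile 4.92. Of the 56 genes, 4 averaged under that percentile (Rpl26, Rpl3l, Rpl5 and Rps9), and 12 averaged under 7. Arrays of 1 age correlated at 0.989 to 0.995 across genes. Day 28 replicate 2 had a median gene signal of 6.34, against 6.42 to 6.52 in the other 13 arrays. Its median over all clusters was instead the highest, at 5.42 against 5.21 to 5.32.

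Taken as an average over the 56 genes, the signal was lower at each later age. The 3 pools of day 7 had averages of 10.03, 10.04 and 10.09, and the 4 of day 18 had 9.995, 9.99, 9.90 and 9.93. Those of day 28 had 9.62, 9.60, 9.69 and 9.63, and those of day 60 had 9.34, 9.33 and 9.34. No pool of an age overlapped with a pool of another age, and the day 60 pools differed least among themselves (SD 0.0070, n = 3, against 0.029 to 0.047 at the other ages).

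**Figure D1:**
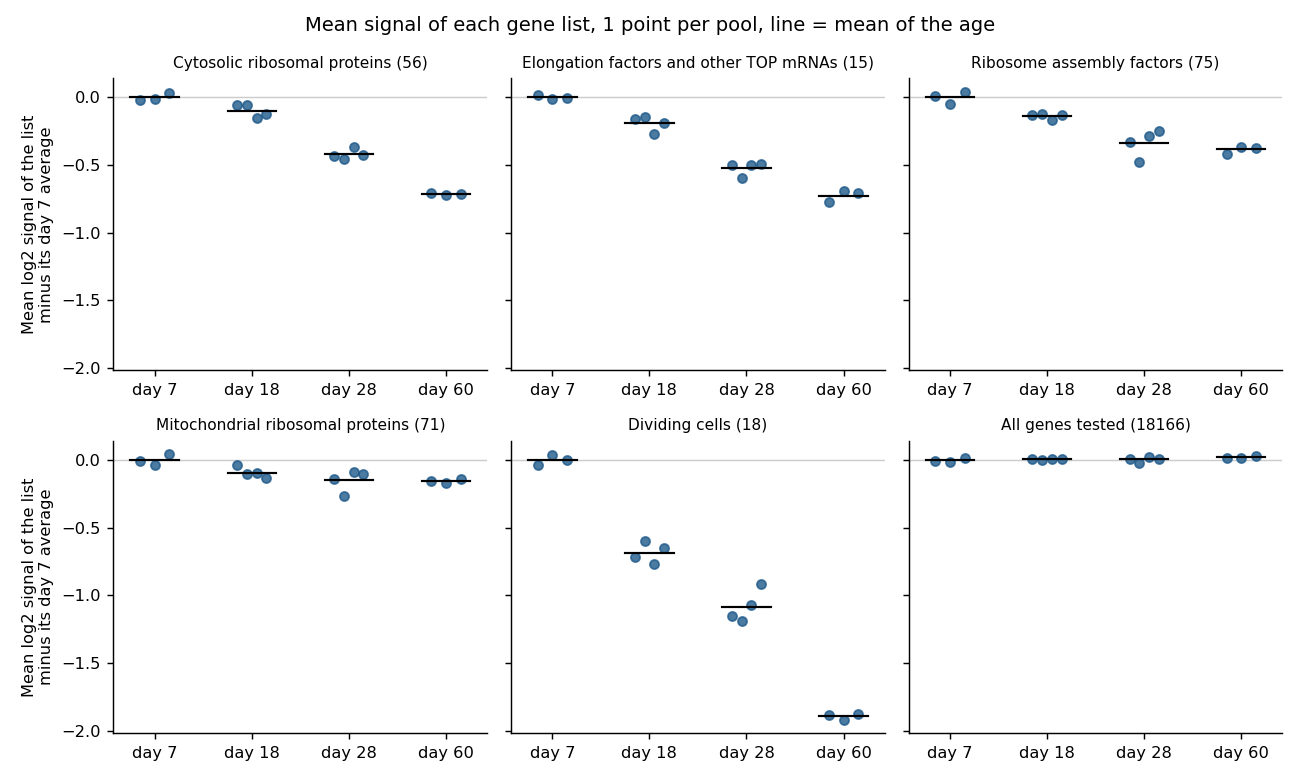
Mean log2 signal of 6 sets of genes in each pool, less the day 7 average of the set; each point is a pool, the line is the mean of the age, and the number of genes stands in brackets. The ribosomal protein genes were lower at each later age, while the mean over all 18166 genes stayed near 0. Signals are relative to each array, so that flat mean does not show a steady total of RNA.

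Over the 4 ages 52 of the 56 genes changed by limma's joint F test (adjusted p under 0.05), where 60.4% of all genes did. The median difference was -0.07 from day 7 to day 18, -0.34 from day 18 to day 28 and -0.32 from day 28 to day 60. From day 7 to day 60, 50 of the 56 fell and 0 rose (background 27.6% lower and 21.7% higher). At an unadjusted p under 0.05 the counts were also 50 and 0. The median difference was -0.74, against -0.03 over all genes, and 9 of the 56 fell by at least 2-fold (background 6.28%). Values of day 60 lay wholly below those of day 7 for 49 genes (background 32.1%). They lay wholly above for 1 gene (background 25.8%), Rpl3l.

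The direction was shared by both subunits from day 7 to day 60, a span over which 27.6% of all genes fell. Of the large subunit 34 of 38 fell with a median of -0.72, and of the small subunit 16 of 18 fell with a median of -0.92; the difference between the subunits was not tested. The 6 genes that did not pass were Rpl26, Rpl30, Rpl37a, Rpl3l, Rps12 and Rps24. All but Rpl30 averaged under 7, and a second cluster of Rpl30, described further on, fell from day 7 to day 60. Among the 12 genes with a mean signal under 7 the median difference was -0.53 and 7 fell. Among the 7 between 7 and 10 it was -0.996 and 7 fell, among the 29 between 10 and 12 it was -0.78 and 28 fell, and among the 8 above 12 it was -0.58 and 8 fell. Above 7, brighter genes had smaller falls (Spearman's rho 0.49 over 44 genes, across genes of the same arrays and as a description).

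**Figure D2:**
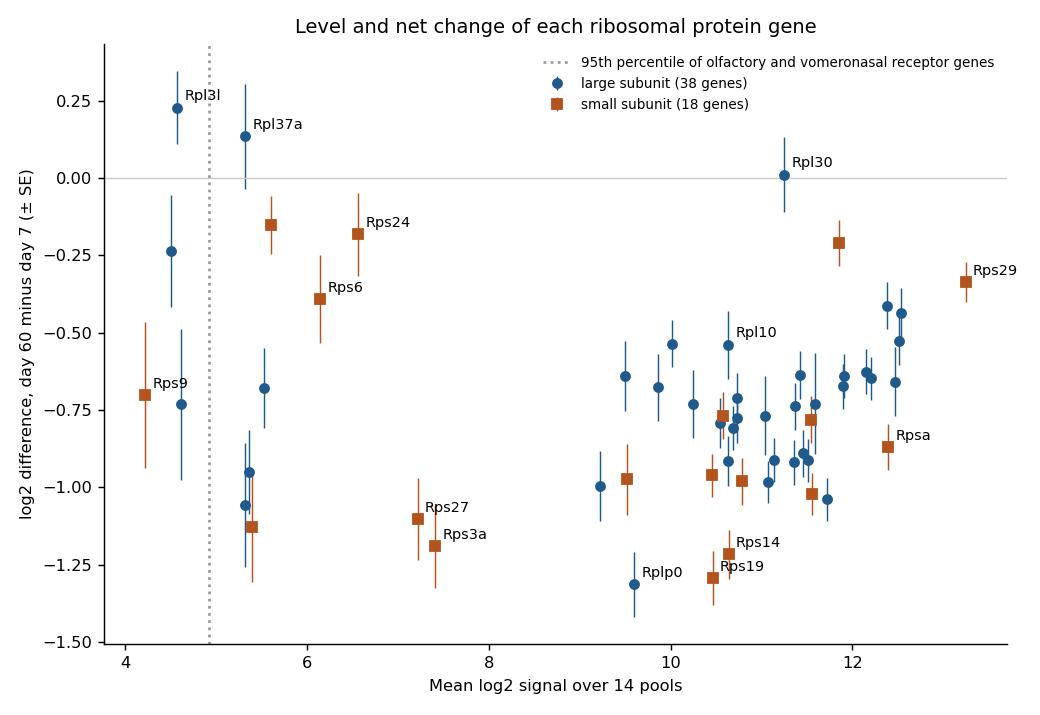
Each point is a ribosomal protein gene, placed by its mean log2 signal over the 14 pools and its log2 difference of day 60 minus day 7, with bars of 1 SE from limma; the dotted line is the 95th percentile of the receptor genes at 4.92. Rplp0, Rps19 and Rps14 lie lowest, and Rpl30, by the cluster used, lies near 0 among genes of like signal.

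Rplp0, the base of the large subunit's stalk, which recruits elongation factors, had the largest fall. Its signal was 10.09, 10.17 and 10.17 (day 7), and 9.95, 9.999, 9.84 and 10.09 (day 18). It was 9.51, 9.28, 9.41 and 9.38 (day 28) and 9.06, 8.64 and 8.80 (day 60). Each later age lay wholly below the one before, by very little between days 7 and 18 and by clear gaps after that. The fall to day 60 was 1.31 ± 0.10 (SE), or 2.49-fold (limma, adjusted p = 6.24e-08). Most of it came in 2 similar steps, -0.57 ± 0.091 from day 18 to day 28 (adjusted p = 0.000301) and -0.56 ± 0.098 from day 28 to day 60 (adjusted p = 0.000732).

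Rplp2, which sits on the same stalk bound to Rplp0, took another course. Its signal was 11.81, 11.91 and 11.92 (day 7), 11.41, 11.46, 11.39 and 11.42 (day 18), 11.10, 11.04, 11.23 and 11.10 (day 28) and 11.18, 11.04 and 11.19 (day 60). The first 3 ages did not overlap, and the last 2 did. It fell by 0.46 ± 0.072 from day 7 to day 18 (adjusted p = 0.000125) and by 0.30 ± 0.066 from day 18 to day 28 (adjusted p = 0.00399). Rplp1 has no cluster of its own under the naming rule and was not analysed here.

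Several proteins of the large subunit lie at the site of peptide bond formation or along the path of the new chain. Rpl3, close to the peptidyl transferase centre, had 11.70, 11.72 and 11.75 (day 7) and 10.79, 10.84 and 10.77 (day 60). These ages were far apart, and the fall of 0.92 ± 0.072 (adjusted p = 5.47e-08) came after day 18. Rpl39, a small protein in the wall of the exit tunnel, had 12.16, 12.14 and 12.23 (day 7) and 11.17, 11.10 and 11.14 (day 60), a fall of 1.04 ± 0.070 (adjusted p = 9e-09). It has 6 clusters, 2 of them with identical values, and their differences ran from -1.08 to -1.03. Its tract, shown earlier, is among the shortest.

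Rpl10, a protein of the late steps of large subunit assembly that lies near the peptidyl transferase centre, was 1 of 2 genes that rose at any step. It had 10.62, 10.66 and 10.57 (day 7), 11.00, 11.07, 10.73 and 10.77 (day 18), 10.77, 10.94, 10.65 and 10.83 (day 28) and 10.25, 10.02 and 9.96 (day 60). Days 18 and 28 overlapped, day 18 lay above day 7, and day 60 lay below every other age. The rise of 0.28 ± 0.10 to day 18 was near the threshold (adjusted p = 0.0464), and it was lost in 8 of the 14 fits that left out 1 pool: day 7 replicates 1, 2 or 3, day 18 replicates 1 or 2, day 28 replicates 1 or 4, or day 60 replicate 2 (adjusted p 0.0552 to 0.127). It was also lost with the mean of its clusters, with every cluster tested and with only the pools of the 2 ages. The fall to day 60 was 0.72 ± 0.10 (adjusted p = 0.000154). Another cluster of Rpl10, with a mean signal of 8.11, took a different course in a fit to all clusters. It had no called rise to day 18 (0.14, adjusted p = 0.534) and fell by 0.58 to day 28 (adjusted p = 0.00843). The cluster used had -0.10 at that step (adjusted p = 0.614). From day 7 to day 60 the other cluster fell by 0.92 (adjusted p = 0.000279) and the cluster used by 0.54.

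Among the small subunit's genes, Rps19, Rps14, Rps3a and Rps16 had the largest falls over the whole span. RPS19 is the gene most often mutated in Diamond-Blackfan anaemia, and its protein is needed to mature the small subunit's RNA. The rat gene had 10.90, 10.72 and 10.95 (day 7), 10.97, 10.89, 10.84 and 10.90 (day 18), 10.48, 10.28, 10.49 and 10.35 (day 28) and 9.49, 9.54 and 9.66 (day 60). Days 7 and 18 overlapped, and each later age was wholly below. The last step, -0.83 ± 0.082 (adjusted p = 5.97e-06), was the largest fall of any member between neighbouring ages, and the fall over the whole span was 2.45-fold (-1.29 ± 0.088, adjusted p = 1.02e-08).

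Rps14, whose loss in people goes with the anaemia of the 5q- syndrome, fell at every step. It had 11.17, 11.17 and 11.32 (day 7), 11.04, 11.02, 10.90 and 10.99 (day 18), 10.40, 10.23, 10.39 and 10.31 (day 28) and 9.97, 9.996 and 10.04 (day 60). No 2 ages overlapped. The falls were 0.23 ± 0.073 (adjusted p = 0.0194), 0.65 ± 0.068 (adjusted p = 5.49e-06) and 0.33 ± 0.073 (adjusted p = 0.00424), and 1.22 ± 0.078 in all (adjusted p = 5.43e-09). The first of these was lost without day 7 replicate 3 (adjusted p = 0.0986) or day 18 replicate 3 (adjusted p = 0.0576).

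Rps3a had 7.74, 7.98 and 8.26 (day 7) and 6.72, 6.96 and 6.72 (day 60), a fall of 1.19 ± 0.13 (adjusted p = 2.57e-06). Rps16 was dimmer, with 6.01, 6.08 and 5.91 (day 7) and 5.25, 4.85 and 4.50 (day 60), a fall of 1.13 ± 0.18 (adjusted p = 7.91e-05). In both genes the 2 ages did not overlap, and 2 of the day 60 pools of Rps16 lay under the receptor genes' 95th percentile.

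Rps2 and Rps3 line the channel through which the mRNA enters. Rps2 had 11.81, 11.79 and 11.90 (day 7), 11.90, 11.92, 11.85 and 11.94 (day 18), 11.62, 11.52, 11.54 and 11.54 (day 28) and 10.83, 10.80 and 10.81 (day 60). The day 60 pools lay together and far below the rest, and the last step was -0.74 ± 0.063 (adjusted p = 1.68e-06). Rps3 instead had its called fall between days 18 and 28 (-0.59 ± 0.10, adjusted p = 0.000486), from 9.86, 9.93, 9.71 and 9.68 to 9.16, 8.99, 9.22 and 9.43. Its day 60 pools, at 8.90, 9.14 and 9.09, overlapped with those of day 28.

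Rpsa, also known as the laminin receptor, joins the small subunit late in assembly. Its signal was 12.58, 12.60 and 12.72 (day 7), 12.70, 12.71, 12.74 and 12.76 (day 18), 12.41, 12.25, 12.36 and 12.41 (day 28) and 11.80, 11.68 and 11.81 (day 60). The first 2 ages overlapped and the later ones were separate. It fell by 0.37 ± 0.065 to day 28 (adjusted p = 0.000656) and by 0.59 ± 0.070 to day 60 (adjusted p = 2.99e-05).

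Rps27 and Rps29 are small zinc-binding proteins of the small subunit. Rps27 had 7.45, 7.56 and 7.54 (day 7), 7.96, 7.99, 7.65 and 7.48 (day 18), 7.10, 6.78, 7.12 and 7.17 (day 28) and 6.35, 6.48 and 6.41 (day 60). Its fall of 0.73 ± 0.12 to day 28 was the largest of any member at that step (adjusted p = 0.000281), and a fall of 0.63 ± 0.12 followed (adjusted p = 0.00202). Rps29 had the highest signal of the set, with 13.45, 13.41 and 13.38 (day 7) and 13.09, 13.09 and 13.06 (day 60). Its fall was small (-0.34 ± 0.064, adjusted p = 0.000435) and was not called in every cluster: of the other 2 clusters of Rps29, 1 fell by 0.41 (adjusted p = 0.000445) and 1, with a mean signal of 12.97, had -0.18 (adjusted p = 0.136) in a fit to all clusters. No single step of it passed the test, although the first 2 did with an intensity trend and robust hyperparameters, and the second did also among genes at or above the median signal.

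Rps6, the substrate of S6 kinase, had 6.21, 6.58 and 6.10 (day 7), 6.44, 6.33, 6.43 and 6.27 (day 18), 5.96, 5.93, 6.10 and 5.97 (day 28) and 5.57, 6.16 and 5.99 (day 60). Day 60 overlapped with both day 7 and day 28. The falls of 0.38 ± 0.12 to day 28 (adjusted p = 0.0356) and 0.39 ± 0.14 over the whole span (adjusted p = 0.0322) both depended on single pools. The first was lost without any 1 of day 18 replicates 1, 2 or 3 or day 28 replicates 1, 2 or 4 (adjusted p 0.0601 to 0.0838), and the second without day 7 replicate 2 (adjusted p = 0.171) or day 60 replicate 1 (adjusted p = 0.176). Both were also lost with arrays centred on their medians or with every cluster tested, and the second with quantile normalization or with only the pools of its 2 ages.

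**Figure D3:**
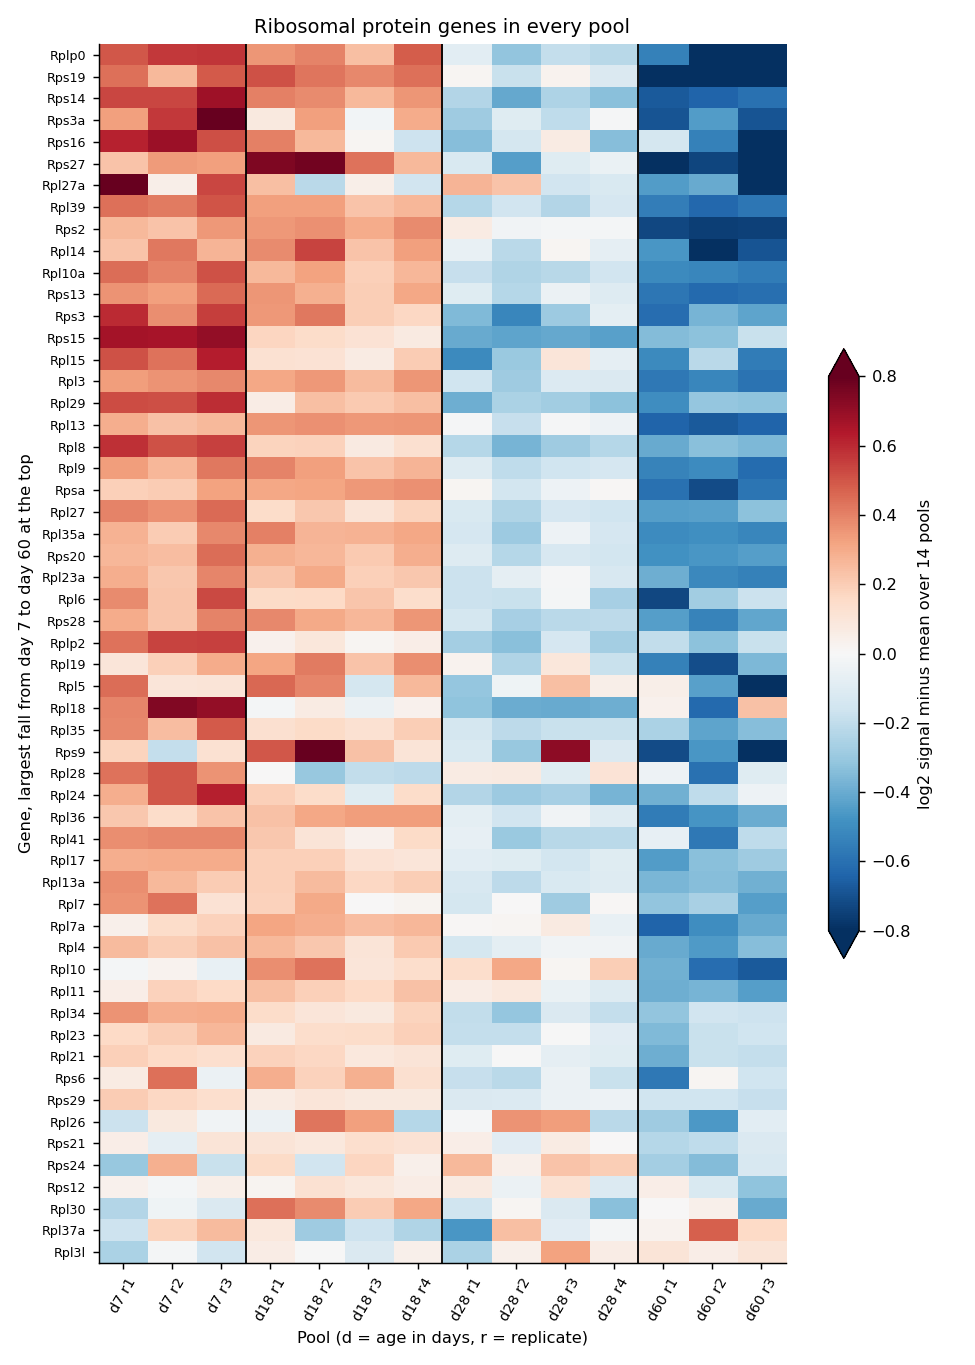
log2 signal of each ribosomal protein gene in each pool, less its mean over the 14 pools; red is above and blue below that mean, colours end at 0.8 either way, and genes are sorted by their difference of day 60 minus day 7. The day 60 columns are blue for most genes, and Rpl30, Rpl37a and Rpl3l at the foot are not.

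From day 7 to day 18 the differences had both signs, with 22 above 0 and 34 below. Of the 56, 2 rose and 16 fell (background 17.4% and 20.7%), and the median was -0.07 against 0.01 over all genes. The 2 rises were those of Rpl10 and Rpl30, and 0 rises were called with the mean of a gene's clusters. The 16 falls were lower in number when single pools were left out: 10 without day 7 replicate 1, 7 without day 7 replicate 3 and 9 without day 18 replicate 3. Day 18 values lay wholly below those of day 7 for 20 genes (background 24.1%) and wholly above for 5 (background 21%).

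The largest falls at this step were those of Rpl28, Rpl18, Rps15, Rpl27a and Rps16. Rps15, a protein of the small subunit's head that is needed for the export of that subunit from the nucleus, was the most exact of them. It had 11.12, 11.11 and 11.15 (day 7), 10.62, 10.60, 10.57 and 10.52 (day 18), 10.05, 10.03, 10.04 and 10.02 (day 28) and 10.10, 10.12 and 10.27 (day 60). Each of the first 3 ages was tight and separate, and day 60 did not go below day 28. It fell by 0.55 ± 0.066 (adjusted p = 9.12e-06) and then by 0.54 ± 0.061 (adjusted p = 1.24e-05).

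Rpl18 had 11.97, 12.32 and 12.29 (day 7) and 11.56, 11.65, 11.54 and 11.62 (day 18), a fall of 0.60 ± 0.15 (adjusted p = 0.00553). Its day 60 pools, at 11.62, 10.96 and 11.81, spread more widely than those of the other ages. Rpl28 had 5.96, 6.02 and 5.88 (day 7) and 5.52, 5.22, 5.32 and 5.31 (day 18), a fall of 0.61 ± 0.12 (adjusted p = 0.000924). Neither gene overlapped between the 2 ages.

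The calls of Rpl27a and Rps16 at this step were less firm. Rpl27a differed by -0.53 ± 0.19 (adjusted p = 0.0386), with 6.25, 5.36 and 5.85 (day 7) and 5.56, 5.10, 5.36 and 5.17 (day 18), which overlap. Without day 7 replicate 1 its adjusted p was 0.226, and the call was also lost without day 7 replicate 3 or without day 18 replicates 2, 3 or 4. Rps16 differed by -0.48 ± 0.17 (adjusted p = 0.0354), and that call was lost without any 1 of the day 7 pools or without day 18 replicates 3 or 4 (adjusted p 0.0536 to 0.109). Both calls were also lost with centred arrays or with every cluster tested, and that of Rpl27a with only the pools of the 2 ages.

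Rpl30, which binds kink-turns in RNA, was the other gene that rose. The cluster used here had 11.02, 11.22 and 11.13 (day 7), 11.69, 11.63, 11.45 and 11.56 (day 18), 11.09, 11.27, 11.13 and 10.92 (day 28) and 11.26, 11.29 and 10.85 (day 60). Day 18 lay wholly above the other 3 ages, which overlapped with each other. It rose by 0.46 ± 0.11 (adjusted p = 0.00461) and fell by 0.48 ± 0.11 (adjusted p = 0.00373), with a net difference of 0.01 ± 0.12.

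A second cluster of Rpl30 moved the other way at the first step. It had 11.49, 11.45 and 11.56 (day 7) and 11.00, 10.88, 10.86 and 10.88 (day 18), and fell by 0.60 in a fit to all clusters (adjusted p = 0.000559), where the first cluster rose with an adjusted p of 0.0123. The log2 ratio of the 2 clusters within an array went from -0.38 ± 0.13 (SD, n = 3) to 0.68 ± 0.064 (SD, n = 4), a shift of 1.06. The exact two-sided permutation test gave p = 0.0571, the smallest that 3 against 4 pools allow, and 0.114 after adjustment over 8 such tests. Those tests were of Rpl30 and Rpl6 alone, though 18 of the 56 genes have several clusters. Rpl30 was named for its rise at this step, so the p is not free of that choice. The mean of the clusters had a difference of -0.07 at this step and of -0.22 from day 7 to day 60 (adjusted p = 0.0361). The rise of Rpl30 therefore holds for 1 of its 2 clusters. From day 7 to day 60 the second cluster fell by 0.45 in the fit to all clusters (adjusted p = 0.00501). The first cluster had 0.01 there (adjusted p = 0.968).

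Rpl6, chosen after its values were seen, was another gene with 2 bright clusters that parted. From day 7 to day 18 the cluster used had a difference of -0.21 and the other one of -0.79. Their log2 ratio shifted by 0.58 (exact two-sided permutation test, p = 0.0571, the smallest possible, and 0.114 adjusted). The test used the same values by which Rpl6 was chosen, so it cannot decide whether the shift is more than chance. By day 60 the ratio was 0.018 ± 0.18 (SD, n = 3), near its day 7 value of -0.10 ± 0.17 (SD, n = 3).

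**Figure D4:**
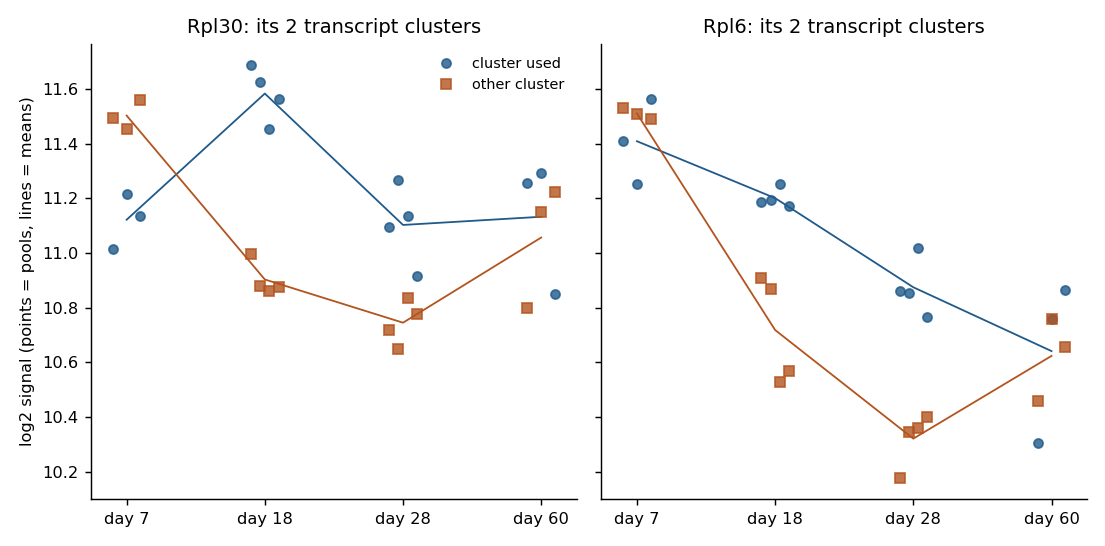
log2 signals of the 2 transcript clusters of Rpl30 and of Rpl6 by age; points are pools and lines join the means. In Rpl30 the cluster used rises from day 7 to day 18 while the other falls, and in Rpl6 the other cluster is the lower one at days 18 and 28.

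From day 18 to day 28 the falls became general. Of the 56 genes 39 fell and 0 rose (background 14.3% lower and 10.5% higher), and the counts at an unadjusted p under 0.05 were 44 and 0. The median was -0.34, against -0.02 over all genes. Values of day 28 lay wholly below those of day 18 for 42 genes (background 15.6%) and wholly above for 0 (background 10.9%). After Rps27 the largest falls were those of Rps14, Rps3, Rplp0 and Rps15, given with their values earlier. Of the large subunit 28 of 38 fell and of the small subunit 11 of 18.

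From day 28 to day 60 another 30 falls were counted and 0 rises (background 11.2% lower and 13.8% higher), with 37 and 0 at an unadjusted p under 0.05. The median was -0.32, against -0.02 over all genes. Values of day 60 lay wholly below those of day 28 for 34 genes (background 14.3%). They lay wholly above for 1 gene (background 17.1%), Rps15, at 0.13 ± 0.066 (adjusted p = 0.166). The largest falls were those of Rps19, Rps2, Rpl10, Rps9 and Rps27. Rps9 averaged under the receptor genes' 95th percentile, and its fall of 0.71 ± 0.22 (adjusted p = 0.0300) was lost without day 28 replicate 3 or without day 60 replicates 1 or 3 (adjusted p 0.0620 to 0.104), and with quantile normalization or every cluster tested.

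**Figure D5:**
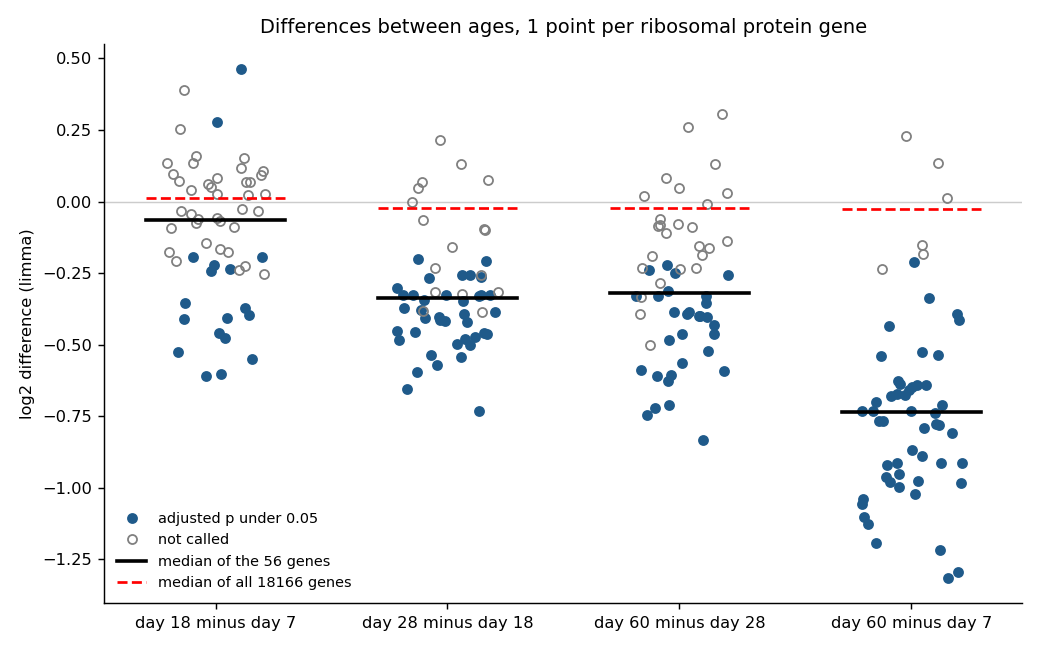
log2 differences of the 56 genes in 4 comparisons; filled points passed the adjusted p of 0.05 and open points did not, the black bar is the median of the 56 and the dashed red bar that of all 18166 genes. The black bar moves from -0.07 at the first step to -0.34 and -0.32, and to -0.74 over the whole span.

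The most frequent course was no call at the first step and a fall at both later ones, in 22 genes. Another 7 fell at the first 2 steps with no call at the last: Rpl24, Rpl29, Rpl34, Rpl35, Rpl8, Rplp2 and Rps15. Of these, Rpl34 was at the threshold at the first step (-0.19 ± 0.071, adjusted p = 0.0463), a call lost in 12 of the 14 fits without 1 pool (adjusted p up to 0.144); only those without day 28 replicate 2 or day 60 replicate 1 kept it, and it was also lost with quantile normalization, centred arrays or every cluster tested. A further 6 fell only between days 18 and 28 by this count and 4 only before day 18; that these differ from the other steps was not tested. Rpl10a, Rpl27 and Rps14 fell at all 3 steps, and 8 genes had no call at any step; outside the rule for named genes, genes are listed here by courses seen in their values. Counted by called falls, 3 of the 56 fell at 3 steps, 31 at 2 steps, 14 at 1 step and 8 at 0 steps. Of all 18166 genes, 255 fell at 3 steps, 1414 at 2 steps, 4800 at 1 step and 11697 at 0 steps. The mean was lower at every later age in 27 genes (48.2%), against 13.8% of all genes, and lowest at day 60 in 49 (87.5%), against 32.4%.

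Genes with and without a TOP tract at the annotated start can be set side by side. The groups depend on that annotation, as the windows of Rps2 and Rpl23 show. The 16 with a tract had a median difference of -0.93 from day 7 to day 60, from -1.31 to -0.53, and all 16 fell. The 30 without had a median of -0.70, from -1.29 to 0.23, and 26 fell (background 27.6%). The ranges overlap over most of their length, and the difference was not tested. The groups also differ in signal. Those without a tract that did not pass, Rpl26, Rpl3l, Rps12 and Rps24, all averaged under 7, as did Rpl27a, Rpl5, Rps16 and Rps6. Of the genes with a tract only Rpl28 did. Rplp0 and Rps19, with nearly equal falls, stand on opposite sides, as the windows printed earlier show.

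Rpl3l, the form of Rpl3 known from striated muscle, averaged under the receptor genes' 95th percentile at 4.32, 4.56 and 4.42 (day 7) and 4.68, 4.63 and 4.68 (day 60). The ages did not overlap, yet the difference of 0.23 ± 0.12 did not pass (adjusted p = 0.127), except with arrays centred on their medians. Rpl26, of which the same is true of the signal, ran between 4.05 and 4.94 over all pools with overlapping ages. Rpl7 had 9.86, 9.93 and 9.61 (day 7) and 9.18, 9.23 and 9.05 (day 60), a fall of 0.64 ± 0.11 (adjusted p = 0.000212). Rpl23, among the brightest, fell by 0.44 ± 0.081 (adjusted p = 0.00035), from 12.69, 12.73 and 12.80 to 12.18, 12.36 and 12.38.

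Relatives that the naming rule leaves out were measured too. Of 6 listed paralogs 3 had a cluster with a single symbol and could be measured. The 3 fell from day 7 to day 60: Rpl7l1 by 0.76 ± 0.097 (adjusted p = 1.02e-05), Rpl22l1 by 0.73 ± 0.14 (adjusted p = 0.000486) and Rpl29l1 by 1.04 ± 0.13 (adjusted p = 9.57e-06). By day 60 Rpl22l1 was under the receptor genes' 95th percentile, so its value there is close to background, and alternatives were not run for Rpl29l1. Rps4y2, a relative named by the pairs of paralogs and not on that list, fell by 0.44 (adjusted p = 0.00339), with -0.55 to -0.35 without single pools. Of the 3 listed proteins of the small subunit with other names 2 were measured. Rack1, a signalling scaffold on the small subunit's head, fell at each step and by 1.16 ± 0.081 in all (adjusted p = 1.35e-08). Fau, whose product is cut into a ubiquitin-like part and a ribosomal protein, fell only at the last step (-0.46 ± 0.13, adjusted p = 0.0205); whether its steps differ was not tested.

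Ribosomal protein genes have many near-identical copies, and a cluster's probes may read more than 1 of them. Of 259 clusters with a symbol of the family, 86 belong to the 56 genes, 31 carry several symbols, 97 carry a single symbol of another copy and 45 that of a pseudogene. In a fit to all 36685 clusters (background 17.6% lower and 12.8% higher from day 7 to day 60), 75 of the 86 fell and 0 rose. Of the 31 clusters with several symbols 28 fell and 0 rose, with a median of -0.75, of the 97 other copies 53 fell and 2 rose, and of the 45 pseudogene clusters 14 fell and 0 rose.

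A cluster with several symbols differed from the gene's own cluster for Rps24 and Rpl37a, both chosen after their values were seen. Rps24 averaged 6.56 in its own cluster and did not pass from day 7 to day 60. A cluster that carries Rps24 and a pseudogene of it averaged 11.79 and fell by 0.95 (adjusted p = 3.85e-07). The cluster of Rpl37a averaged 5.32 and did not pass, and one that carries the symbol in double averaged 12.35 and fell by 0.44 (adjusted p = 0.000368).

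Other parts of the translation machinery were set beside the ribosomal proteins for the span from day 7 to day 60. Over all genes 27.6% fell and 21.7% rose over this span. Of 15 elongation factors and other genes with TOP mRNAs 14 fell and 0 rose, with a median of -0.67. Hnrnpa1, an RNA-binding protein of splicing, fell by 1.74 ± 0.11 (adjusted p = 7.91e-09) and Pabpc4, a poly(A)-binding protein, by 1.33 ± 0.092 (adjusted p = 1.31e-08). Of 75 ribosome assembly factors 49 fell and 2 rose, with a median of -0.41. Nhp2, of the RNA pseudouridylation complex, fell by 1.26 ± 0.093 (adjusted p = 2.57e-08) and Nop2, an rRNA methyltransferase, by 1.22 ± 0.10 (adjusted p = 8.55e-08). Sbds, which helps to release a factor from the new large subunit, rose by 0.89 ± 0.085 (adjusted p = 4.87e-07).

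Initiation factors were more mixed, with 14 of 24 lower (58.3%, background 27.6%) and 4 higher (16.7%, background 21.7%) and a median of -0.25. Eif1b fell by 0.98 ± 0.10 (adjusted p = 1.08e-06), and Eif1ax, which helps to find the start codon, rose by 0.98 ± 0.074 (adjusted p = 3.55e-08). Of 71 mitochondrial ribosomal protein genes 24 fell (33.8%, near the background) and 2 rose (2.82%), with a median of -0.16. Mrps27 fell by 0.68 ± 0.099 (adjusted p = 3.25e-05) and Mrps6 rose by 0.93 ± 0.069 (adjusted p = 2.71e-08). Of 24 genes of mTOR signalling, S6 kinases and Myc factors 8 fell (33.3%) and 4 rose (16.7%), with a median of -0.14, and both shares were near the background. Mycn fell by 1.43 ± 0.13 (adjusted p = 2.99e-07) and Mycl by 0.88 ± 0.087 (adjusted p = 6.57e-07), both transcription factors of growth. Larp1, which binds TOP mRNAs, rose by 0.51 ± 0.078 (adjusted p = 5.39e-05).

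Markers of cell types moved over the same ages. Genes of dividing cells fell with the ribosomal proteins: 16 of 18 from day 7 to day 18 (background 20.7%), 13 from day 18 to day 28 (background 14.3%), 17 from day 28 to day 60 (background 11.2%) and 18 over the whole span (background 27.6%). The mean of this list ran from 8.88 to 8.95 in the day 7 pools, 8.14 to 8.31 at day 18, 7.72 to 7.997 at day 28 and 6.99 to 7.04 at day 60. Ccna2, a cyclin, fell by 2.54 ± 0.10 (adjusted p = 4.15e-11). At the first step the list's median was -0.73, when that of the ribosomal proteins was -0.07. The part of dividing cells in the fall of the ribosomal proteins was not tested. In pools of whole tissue, fewer cells of a type and less RNA per cell cannot be told apart.

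Genes of the secretory epithelium, which define this tissue, rose in 14 of 14 cases from day 7 to day 60 (background 21.7%). The list's mean was 4.62 to 4.71 in the day 7 pools, under the receptor genes' 95th percentile, and 7.00 to 7.26, 8.59 to 8.99 and 11.07 to 11.14 at the later ages. Haploid germ cell genes rose in 8 of 12 cases from day 28 to day 60 (background 13.8%), with list means of 4.24 to 4.41 and 6.19 to 6.53. Fibroblast and matrix genes fell in 9 of 9 cases at the first step (background 20.7%) and 8 of 9 over the whole span (background 27.6%; means of 11.37 to 11.48 at day 7 and 10.11 to 10.19 at day 60).

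Over the whole span, in which 21.7% of all genes rose and 27.6% fell, 10 of 11 T lymphocyte genes rose (means of 5.30 to 5.40 and 6.13 to 6.20). Of 10 macrophage genes 2 rose and 1 fell over that span, and 7 rose after day 28 (background 13.8%). Of 9 smooth muscle genes 4 rose and 3 fell, of 7 endothelial genes 1 rose and 3 fell, and of 6 red blood cell genes 4 fell and 0 rose. The part of these cells in the ribosomal protein signals was not tested.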

How the data were processed

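RNA from 14 pools of whole rat epididymis was labelled and hybridised, 1 array for each pool. The deposited values are log2 signals of 36685 transcript clusters; the authors processed the arrays with RMA and the Transcriptome Analysis Console, per the submitters' processing notes, and the versions, the settings and the annotation release are not given in the sources used here. RMA, as published, brings the probe signals of all arrays to the same distribution, so every value is relative to its array.

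Symbols came from the array annotation: 18511 clusters have 1, 575 have several and 17599 are not listed. The cluster with the highest mean stood for a gene, which left 18166 genes, with no filter on low signal. The test is limma's moderated one (lmFit and eBayes, version 3.58.1, under R 4.3.3), two-sided, from a linear model of all 14 arrays with age as its only factor. Adjusted p is by Benjamini-Hochberg across the 18166 genes, with 0.05 as the threshold. Errors are SEs of the fit unless called SD. The fit was tested on simulated data.

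The members and lists were chosen with earlier results of these data known, so lists are described by counts and medians and are not tested. Beside the members these lists were used: other cytosolic subunits, paralogs, elongation factors and TOP mRNAs, initiation factors, assembly factors, mTOR signalling, mitochondrial ribosomal proteins and markers of 9 cell types or states. Named members are the 5 largest called rises and falls of a comparison, the 3 with the highest and lowest signal, stalk genes, Rpsa, Rps6 and both genes, where measured, of listed paralog pairs (such as Rpl3 and Rpl3l, Rpl7 and Rpl7l1, or Rpl39 and Rpl39l); other lists give their largest called changes. The alternatives were other scalings, filters, variance models and choices of clusters, fewer arrays, the replicate number as a block and leaving out each pool.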

Additional observations from a re-analysis of the deposited data

Results flagged for a closer look

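Rpl18 at day 28 was singled out because replicate 1, at 11.26, stood apart from the other 3 pools, at 11.18 to 11.19. The gap was 0.839 of the whole range of the 4 pools, above Dixon's critical value for 4 values. Chance gives such a gap in about 1 in 20 groups, and this was the only one among 60 groups of 4 pools. The whole range spans less than 0.1 on the log2 scale.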

How the results depend on the processing

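The falls from day 18 to day 28, from day 28 to day 60 and over the whole span kept their counts within 1.5 times under every alternative that was run. The counts of rises were less stable. From day 7 to day 18 they were 5 with quantile normalization, 1 with only the pools of the 2 ages compared, 0 with the mean of a gene's clusters, 1 with every cluster and 1 to 3 without single pools. The falls at that step ranged from 7 to 17 without single pools. With arrays centred on their medians 1 rise, that of Rpl3l, was called from day 7 to day 60, and without day 60 replicate 2 there was 1 from day 28 to day 60, against 0 without any other pool. The median difference was -0.0233 from day 7 to day 18 with quantile normalization, -0.39 from day 18 to day 28 when genes of below-median signal were left out, -0.66 over the whole span with centred arrays and -0.80 to -0.72 without single pools. The causes were not tested.

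Signs turned in differences that were not called, and in the rise of Rpl30. From day 7 to day 18 Rpl23 had 0.0276 with quantile normalization, Rps6 had -0.029 to 0.212 without single pools, and Rpl30 had -0.0691 with the mean of its clusters. From day 18 to day 28 Rpl3l had -0.0187 with quantile normalization and -0.0471 to 0.144 without single pools. From day 28 to day 60 the ranges without single pools were -0.0518 to 0.140 for Rpl3l, -0.210 to 0.0836 for Rps6 and -0.0499 to 0.171 for Rpl30. From day 7 to day 60 Rpl30 had -0.0398 with array weights, -0.218 with the mean of its clusters and -0.0691 to 0.152 without single pools. Of 1527 alternative values of the 67 called pairs of a named gene and a comparison 1448 kept the call and 78 lost it; 1 turned, the rise of Rpl30. Of 1105 values of pairs that were not called 38 turned and 40 passed the threshold.

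Equal replicate numbers did not pair the pools: the deviations of 19 same-numbered pairs from their age means correlated at -0.143 to 0.0456. With the replicate block 13 genes fell and 2 rose from day 7 to day 18, 39 fell at the next step, 29 at the last and 50 over the whole span, and Rpl30 had -0.00467 from day 28 to day 60. The calls of Rpl34 (adjusted p = 0.0742) and Rps16 (adjusted p = 0.0727) from day 7 to day 18 were also lost with the block, and no other call of a named gene was. Precision is limited by the few pools of each age, and signals near those of the receptor genes are close to background.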
